A study of Homo sapiens with 2 samples.

Results

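The cells described here are epithelial-like cells of 1 human stem cell culture that carried the most transcripts of 5 genes, PRSS12, EDN1, P2RY6, KCNJ2 and CCBE1. They numbered 607, which was 15% of the 4046 epithelial-like cells, of 11211 cells that passed the cell filter and of 14829 cell barcodes in all. Epithelial-like cells were chosen by 5 or more unique molecular identifiers (UMIs, counts of single captured transcripts) over VTCN1, GATA3, CLDN4 and WNT6, with the troponin gene TNNT2 and the collagen gene COL1A1 each under 1000 CPM (counts scaled to the same total in each group). Among them the members were the top 15% by a score, the mean of log(1 + counts per 10000) over the 5 genes. The remaining 3439 epithelial-like cells are the comparison throughout and are called the others.

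The culture was 1 differentiation of HES2, an established human embryonic stem cell line, into SANLPCs, cells resembling the pacemaker cells of the sinoatrial node. Its dissociated cells were labelled with the oligonucleotide-tagged antibody TotalSeq A0054 anti-human CD34 and sorted for DAPI-gated live singlets, with no selection for CD34 given. The series holds 2 libraries of these same cells, polyadenylated RNA counted at the 3′ end and the antibody tag, and 14808 barcodes held UMIs in both. Members and others therefore share line, culture, treatment and library, there is no replicate of either, and no test between them was possible. The intervals given are exact, at a level of 95%, and hold counting error alone.

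The 5 genes act in different systems. PRSS12 encodes neurotrypsin, a secreted serine protease that cleaves agrin. EDN1 encodes the precursor of endothelin-1, a peptide that signals through the receptors EDNRA and EDNRB. P2RY6 encodes a receptor for extracellular UDP, KCNJ2 the inward rectifier potassium channel Kir2.1, and CCBE1 a secreted matrix protein that aids the processing of the lymphatic growth factor VEGFC. An epithelium is a sheet of cells held together by E-cadherin, tight junctions and desmosomes and resting on laminin, and GATA3, VTCN1 and GABRP are used to recognise amnion and trophoblast types of epithelium in stem cell cultures.

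The promoters of the first pair of genes are shown because these genes gave the members their name and the regions in front of them differ in composition. Each line below is the 150 bases before a RefSeq start site in GRCh38.p14, 5′ to 3′ on the gene's strand, from chr4:118353004-118353153 (minus strand) and chr6:12290211-12290360 (plus strand). Capitals mark matches to TATAAA and to AGATAA, the second read here as its reverse complement.
PRSS12: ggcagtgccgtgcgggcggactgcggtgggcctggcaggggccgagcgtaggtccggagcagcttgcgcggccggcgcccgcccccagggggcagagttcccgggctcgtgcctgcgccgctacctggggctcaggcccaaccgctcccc
EDN1: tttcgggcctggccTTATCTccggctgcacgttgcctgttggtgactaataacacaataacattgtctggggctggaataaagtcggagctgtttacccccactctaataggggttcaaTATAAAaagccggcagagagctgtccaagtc
The PRSS12 stretch was 78.7% G and C and the EDN1 stretch 49.3%. Both strands of the 250 bases before each start were searched for the GATA motif AGATAA, the TATA motif TATAAA, the AP-1 motif TGANTCA and the TEAD motif GGAATG, which can overlap. They were found in 9.17%, 10.7%, 6.57% and 11.9% of all 35116 promoters in the table. The EDN1 start shown is 1 of 3 in the table, with TATAAA at base -31 and AGATAA at base -136 from it. Another EDN1 start had GGAATG, and the PRSS12, KCNJ2 and CCBE1 windows held none of these letters. A match is a string of letters, not a site shown to be used, and 3′ counts do not show which EDN1 start was used. P2RY6 was not matched in the table.

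The lowest member scored 0.924 and the highest other cell 0.923, and 552 cells, 225 of them members, lay within 10% of that limit. The 10 members just inside had 185 CPM of PRSS12, 310 of EDN1, 197 of P2RY6, 107 of KCNJ2 and 119 of CCBE1. The 10 cells just outside had 192, 396, 223, 74.3 and 124 CPM of the same genes. When cells were thinned to 5000 UMIs before scoring, 597 cells were chosen and 356 of them were members. Cut from a score per cell, the members are a range of that score.

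**Figure D1:**
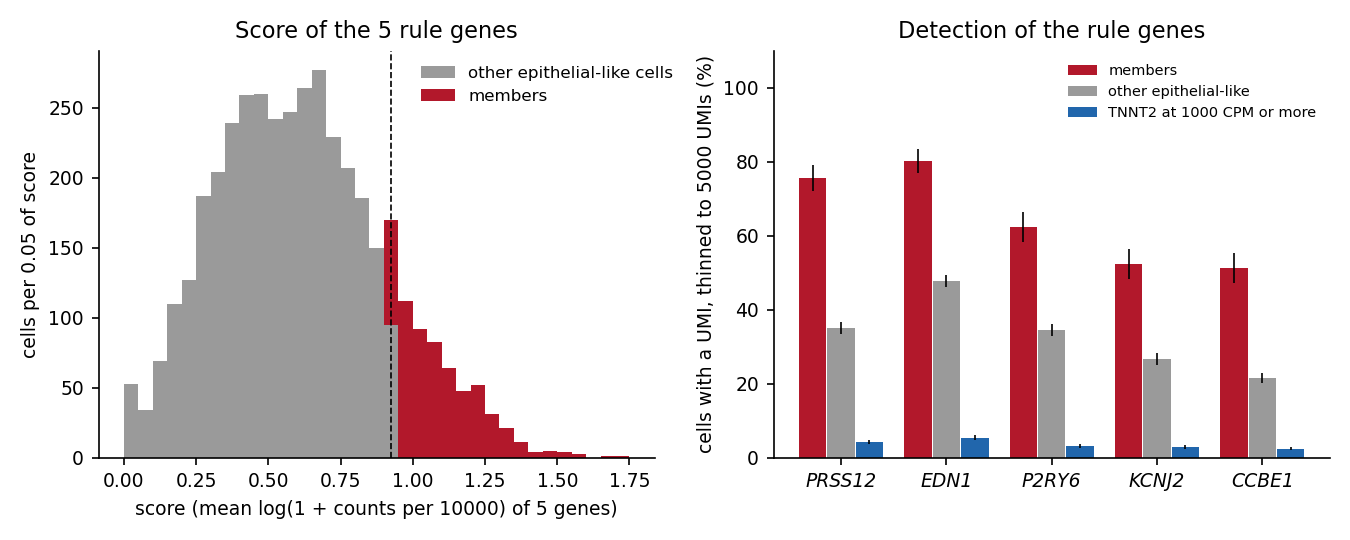
Left, stacked histogram of the score of the 5 rule genes over 4046 epithelial-like cells, with members in red, others in grey and the limit dashed. Right, share of cells with at least 1 UMI of each gene after every cell was thinned to 5000 UMIs, with exact 95% intervals as bars. The histogram has no gap at the limit. The cells with TNNT2 at 1000 CPM or more, and COL1A1 under 1000 CPM, sit between 2.45% and 5.40% for every gene.

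The values of the rule genes chose the cells and are given as a description only. PRSS12 (ENSG00000164099, chr4:118280038-118353003) had 341 CPM in members and 106 in others, and a median of 4 UMIs in a member cell with a 10th to 90th percentile of 1 to 12. EDN1 (ENSG00000078401, chr6:12230516-12297194) had 448 and 168 CPM, and a median of 6 UMIs in a member, from 1 to 15. The 10th percentile of both genes in members equalled 1 UMI, and PRSS12 was found in 95.1% of members and EDN1 in 96.9%. P2RY6 (ENSG00000171631, chr11:73264506-73298625) had 207 and 87.4 CPM. KCNJ2 (ENSG00000123700, chr17:70169532-70180044) had 144 and 62.9 CPM, and CCBE1 (ENSG00000183287, chr18:59430939-59697721) had 139 and 51.9 CPM.

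These genes were present across the epithelial-like cells and not in members alone. All 5 were detected in 61.1% of members, 4 in 33.3% and 3 in 5.6%, and all 5 in 12.4% of others. After thinning of each cell to 5000 UMIs, which left out 8 members and 60 others below that depth, PRSS12 was detected in 75.6% of members, 35.1% of others and 4.17% of the TNNT2-high cells. Unthinned, PRSS12 was detected in 95.1%, 64.5% and 9.15% of these cells, whose median depths were 15988, 17810 and 16018 UMIs. The other 4 genes followed the same order, with EDN1 at 80.3%, 47.8% and 5.40% after thinning. The 5751 TNNT2-high cells had TNNT2 at 1000 CPM or more and COL1A1 under 1000 CPM. They are heart muscle by the first marker and are given for comparison, and whether their counts are background was not tested. In the 995 cells with COL1A1 at 1000 CPM or more, the thinned shares ran from 2.95% for KCNJ2 to 8.65% for CCBE1.

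The 5 genes were only weakly tied to each other from cell to cell. Over the 3978 epithelial-like cells of 5000 UMIs or more, thinned to that depth, the 10 pairs had Spearman correlations from 0.0161 (EDN1 with CCBE1) to 0.0964 (PRSS12 with CCBE1), in counts that are sparse and come from 1 library. Each gene in turn was left out and 607 cells were chosen again on the other 4. The 5 genes had themselves been picked with earlier results of these data known, so the ratios are a description only. CCBE1 was then at 104 CPM against 57.3, a ratio of 1.82 (1.70 to 1.95), PRSS12 at a ratio of 1.73 (1.64 to 1.81) and KCNJ2 at 1.57 (1.47 to 1.68). P2RY6 had a ratio of 1.38 (1.30 to 1.47) and EDN1, at 255 CPM against 199, the smallest, 1.28 (1.23 to 1.34). The 5 left-out ratios were thus well under those of the genes when they took part in the choice, which ran from 2.29 to 3.20. Between 69.7% (EDN1 left out) and 82.0% (CCBE1 left out) of the rechosen cells were members. With cycling cells left out beforehand, 337 cells were chosen and the ratios were 1.68 for CCBE1, 1.44 for KCNJ2, 1.40 for PRSS12, 1.25 for P2RY6 and 1.18 for EDN1.

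Members carried the junction genes of an epithelium. The gate genes VTCN1, GATA3, CLDN4 and WNT6 had 621, 251, 655 and 393 CPM in members and 522, 183, 583 and 403 in others. These genes chose the epithelial-like cells, so their levels are given as a description only. EPCAM, an epithelial adhesion molecule, had 877 CPM in members against 153 in TNNT2-high cells, and CDH1, E-cadherin, 164 against 12. The defining endothelial genes PECAM1 and CDH5 had 0 UMIs among the 9831308 of the members, which allows up to 0.305 CPM, and 6 of the 10 endothelial and 6 of the 8 blood markers were at 0. SOX10 of the neural list was also at 0, and the summed level of its 8 genes was 27.7 CPM. EDN1 and CCBE1 were thus counted in cells without these transcripts of endothelium.

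Transcripts of cardiac and fibroblast markers were counted in both groups. The 11 cardiomyocyte markers summed to 1376 CPM in members, 1230 in others and 44921 in TNNT2-high cells, and TNNT2 itself had 322 CPM in members and 334 in others. The 7 fibroblast markers summed to 5128 CPM in members, 3885 in others, 611 in TNNT2-high cells and 16096 in the 995 cells with COL1A1 at 1000 CPM or more. Most of this sum was COL3A1, a fibrillar collagen, at 3434 and 2385 CPM, a ratio of 1.44, and LUM, lumican, at 893 and 651 CPM. DCN and COL1A1, also of that list, had ratios of 0.992 and 0.828. Members, others and TNNT2-high cells were all chosen with COL1A1 under 1000 CPM, which bears on their sums. The part of cardiac and fibroblast transcripts in the results below was not tested.

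Cycling cells were rarer among members than among others. Cells with 5 or more UMIs over 14 genes of G2 and mitosis made up 15.5% of members (12.7% to 18.6%) and 39.7% of others (38.1% to 41.3%). Cells with 10 or more UMIs over 14 S phase genes made up 10.7% and 33.4%, and cells with either 20.3% and 48.7%. Members had fewer UMIs than others, so the share was also taken at 5000 UMIs per cell, with 2 or more G2 and mitosis UMIs. It was then 18.4% of members (15.3% to 21.7%) and 40.0% of others (38.3% to 41.7%), a gap of similar size at equal depth. The score is scaled to each cell's total, and the part of that scaling in the difference was not tested.

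The share was lower with each step up the score. With cells split into 10 equal groups by score, from the lowest to the highest decile, the thinned G2 and mitosis share was 52.6% in the lowest decile, 38.8% in the fifth and 14% in the highest, while the median depth went from 18215 to 15924 UMIs. MKI67, the proliferation antigen Ki-67, had 326 CPM in the lowest decile and 52.7 in the highest.

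**Figure D2:**
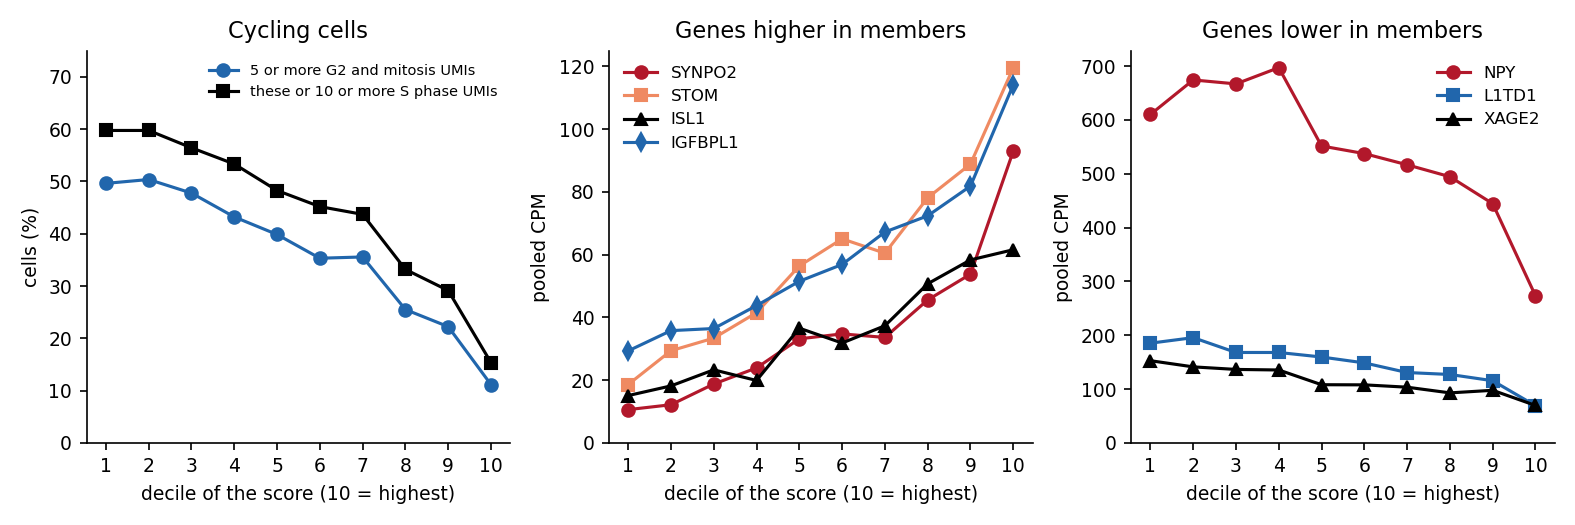
Epithelial-like cells in deciles of the score of the 5 rule genes (10 is the highest). Left, percent of cells counted as cycling by UMIs without thinning, which falls from 49.6% to 11.1% for G2 and mitosis; centre and right, pooled CPM of genes higher (SYNPO2, STOM, ISL1, IGFBPL1) and lower (NPY, L1TD1, XAGE2) in members.

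Across genes, differences were few. Of 6804 genes at 20 CPM or more in the higher group, without the rule genes, gate genes and mitochondrial genes, 177 (2.6%) were at a ratio of 1.5 or more in members and 251 (3.69%) at 1/1.5 or less. The median log2 ratio of all of them was 0.0061. All 15 lowest ratios among genes at 50 CPM or more belonged to the cell cycle. They ran from HIST1H1B, a linker histone of S phase, at 25.8 CPM against 115 (ratio 0.225, 0.198 to 0.255), to MAD2L1, a spindle checkpoint gene, at 0.370. TYMS, thymidylate synthase, was at 36.0 CPM against 118, and MKI67 at 91.5 against 254.

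All 12 measured S phase genes and all 14 G2 and mitosis genes were called lower, with median log2 ratios of -1.26 and -1.25. With cycling cells left out of both groups, 484 members and 1765 others were kept. Of the S phase genes 4 were still measured and none of these was called, and 0 of the G2 and mitosis genes were measured. Cycling cells were defined by UMIs of these same lists, so the loss of these calls follows from that choice. Over all genes, 116 of 6635 (1.75%) were then higher and 27 (0.407%) lower, and 102 of the 116 and 22 of the 27 had been called in all cells too. HIST1H1B, CLSPN, RRM2, HIST1H1D and MAD2L1 turned to ratios above 1 there, at the low levels left. Values without cycling cells are given beside the results below.

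**Figure D3:**
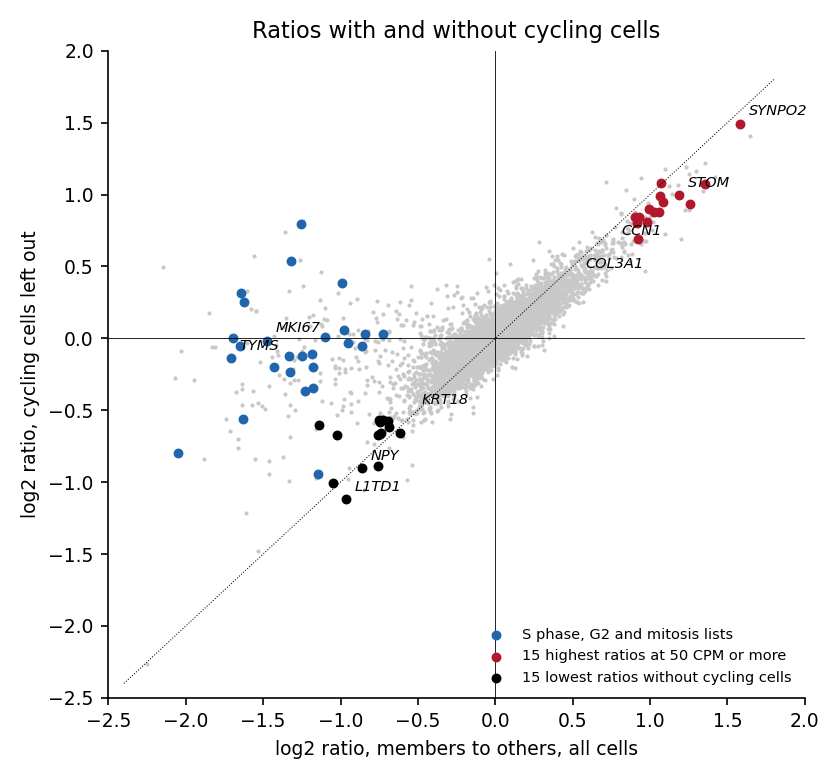
Log2 ratio of members to others for each measured gene with all cells (x axis) and with cycling cells left out (y axis), with the 15 highest ratios in red, the S phase and mitosis lists in blue and the 15 lowest ratios without cycling cells in black. The blue genes lie far below 0 on the x axis and spread around 0 on the y axis, while the red genes stay above 0 on both.

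Among genes at 50 CPM or more in the higher group, those highest in members after the rule genes were led by SYNPO2. This gene encodes the actin-binding protein synaptopodin-2 (chr4:118850681-119061247). SYNPO2 had 82.1 CPM in members and 27.4 in others, a ratio of 3.0 (2.75 to 3.26), and 2.81 without cycling cells. In TNNT2-high cells it had 86.8 CPM, so its level in members was not above that of heart muscle cells. Its level went from 10.6 CPM in the lowest decile of the score to 92.9 in the highest. It lies within 1 Mb of PRSS12, a rule gene, and with PRSS12 left out of the score its ratio was 1.93, with EDN1 left out 3.32. Of the other 6 genes measured within 1 Mb of PRSS12 none was called, with ratios from 1.05 to 1.48, the highest being SNHG8.

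Around the other rule genes, few neighbours differed. NEDD9, a scaffold of focal adhesions within 1 Mb of EDN1, was higher at 54.3 CPM against 34.7, a ratio of 1.57, and HIVEP1 on the same side was at 0.978. None of the 6 genes near P2RY6, the 5 near CCBE1 or the 1 near KCNJ2 was called.

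Transcription factors and signalling genes were among the 15 highest. ISL1, a LIM homeodomain factor of amnion, second heart field and sinoatrial node, had 62.7 CPM in members and 30.1 in others, a ratio of 2.08 (1.90 to 2.28), and 1.83 without cycling cells. Its level in TNNT2-high cells was 69.4 CPM, while TBX3, another pacemaker factor, had 98.5 and 79.3 CPM in members and others and was not called. RUNX1, a runt domain factor, was at 79.6 against 42.7 CPM and NFKBIZ, an atypical IkB protein, at 121 against 59.3. These 3 genes kept ratios of 1.79 to 1.84 without cycling cells. CRABP1, a retinoic acid binding protein, was at 145 against 76.7 CPM, a ratio of 1.90, and 1.62 without cycling cells.

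STOM, stomatin, a membrane protein that regulates ion channels, had 112 and 49.2 CPM, a ratio of 2.28 (2.12 to 2.44). TENM4, a teneurin adhesion receptor, was at 60.8 and 25.5 CPM, ST6GALNAC3, a sialyltransferase, at 50.9 and 19.9, and IGFBPL1, a secreted protein related to insulin-like growth factor binding proteins, at 106 and 50.2. The IGFBPL1 ratio was 2.10 with cycling cells and 2.12 without them. CRISPLD2, a secreted glycoprotein, SNCAIP, which encodes synphilin-1, and CTTNBP2, a cortactin-binding protein, had ratios of 1.99, 2.09 and 1.89. PLSCR5, SH3BGRL2 and STK17B completed the 15, with ratios of 2.12, 1.97 and 1.90. Without cycling cells the 15 highest also held SSC5D at 2.24, SPRY2 at 1.92, RAMP1 at 1.83 and FHOD3 at 1.82. RAMP1, a co-receptor of the calcitonin receptor family, had 317 and 173 CPM there. With cycling cells kept, RAMP1 was at 1.41 when cells were thinned before scoring and FHOD3 at 1.47 without PRSS12 in the score. Within cluster 1, CRABP1 was at 1.35 and STK17B at 1.46, neither a call.

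Further genes lower in members were named from the comparison without cycling cells. Cells under the UMI limits for cycling were kept there, and the part of any cycling left among them was not tested. L1TD1, an RNA-binding protein of embryonic stem cells, had 69.9 CPM in members and 152 in others, a ratio of 0.460 (0.419 to 0.504). NPY, the precursor of neuropeptide Y, had 281 and 525 CPM, a ratio of 0.534, and IQGAP2, a scaffold of the cytoskeleton, 25.2 and 50.6 CPM. The level of NPY in TNNT2-high cells, which bears on transcripts free in the suspension, was 57.1 CPM. With cycling cells kept, NPY was at 0.552, but at 0.874 when PRSS12 was left out of the score and at 0.732 when cells were thinned before scoring, and neither is a call. L1TD1 was at 0.512, 0.613 and 0.609 in the same comparisons and stayed a call. XAGE2, a cancer and placenta antigen, had 77.4 and 122 CPM, TUBA1B, an alpha tubulin, 229 and 348, and the other 10 of the 15 lowest, among them MAP1B, ACAT2 and SRM, had ratios from 0.540 to 0.675. With PRSS12 left out of the score and cycling cells kept, XAGE2 was at 0.751, ARSJ at 0.727, RCAN1 at 0.788, SULF2 at 0.737 and UCHL1 at 0.707, all short of a call. With cells thinned before scoring, MAP1B, POLD2, SRM, ARSJ, RCAN1, XAGE2 and SULF2 were short of it too, at 0.672 to 0.741.

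The known partners of the rule genes were mostly at low levels. Of the other 6 genes of the endothelin pathway only EDNRB, an endothelin receptor, reached 20 CPM, at 33.0 in members and 20.6 in others, and it was called higher (ratio 1.60, 1.41 to 1.81). EDNRA, the other receptor, had 4.88 and 3.55 CPM, and ECE1, the enzyme that releases endothelin-1, 3.15 and 5.66. Of the 9 other VEGFC genes, NRP2, a co-receptor, and ADAMTS2 were measured and neither was called. VEGFC itself had 7.12 and 6.73 CPM and ADAMTS3, the protease that CCBE1 assists, 12.1 and 9.25. Of 26 purinergic genes 3 were measured (P2RX4, ENTPD4 and ENTPD6) and none was called, and of the other 14 inward rectifiers none reached 20 CPM, KCNJ12 having 5.49 and 3.63.

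PRSS12 belongs to the trypsin-like proteases, of which 9 other genes with their inhibitors were measured. PRSS22, a tryptase, was called higher at 51.6 against 31.9 CPM, a ratio of 1.62, and was at 1.32 and not called without cycling cells. AGRN, agrin, the known substrate of PRSS12, had 34.7 and 36.4 CPM. The protease inhibitors SPINT1, SPINT2 and TFPI had ratios of 1.16, 1.04 and 1.29.

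Epithelial genes were slightly above the median gene and keratins below it, within the limit of 1.5. None of 19 measured junction and adhesion genes was called, and their median log2 ratio was 0.23, against 0.0061 over all genes. CLDN3, a claudin, had a ratio of 1.49, DSC2, a desmosomal cadherin, 1.42, DSP, desmoplakin, 1.35 and CDH1 1.24. CLDN3 was at 1.26 and DSC2 at 1.27 without cycling cells. Of 5 simple epithelial keratins none was called either, with a median of -0.22, and KRT18 had 2861 CPM in members and 4123 in others. KRT18 went from 4796 CPM in the lowest decile of the score to 2722 in the highest. Of 14 integrin and basement membrane genes, NID2, the linker protein nidogen-2, was called higher at 42.8 against 26.6 CPM.

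The YAP and TEAD, AP-1 and TGF-beta and BMP lists held 5 called genes, all higher, beside 2.6% higher over all genes measured. The WNT, hypoxia and aryl hydrocarbon receptor lists, whose called genes are given further below, each held 1 gene called lower. Lists this short are given as counts only. Of 14 targets of YAP and TEAD, CCN1, a matrix signalling protein, at 1235 against 729 CPM (ratio 1.69, 1.66 to 1.73) and F3, tissue factor, at a ratio of 1.52 were called higher, while CCN2 had 1.35 and ANKRD1 1.08. F3 was at 1.35 without cycling cells and CCN1 at 1.58. Of 14 AP-1 and immediate early genes, the growth factor feedback genes SPRY2, at 48.6 against 24.5 CPM, and DUSP5, at a ratio of 1.87, were called. FOS, FOSB and EGR1, which rise on cell dissociation, had ratios of 1.36, 1.36 and 1.40 and were not called, and the list's median log2 ratio was 0.39. Of 12 genes of TGF-beta and BMP response 1 was called, BMP7, a BMP ligand, at 25.8 against 16.3 CPM.

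Lists of epithelial identity held 2 called genes, beside 2.6% higher and 3.69% lower over all genes. Of 11 amnion-type genes ISL1 alone was called, while GABRP had 1690 and 1524 CPM and TFAP2B, HAND1 and BAMBI had ratios of 1.17, 1.25 and 1.33. Of 5 trophoblast-type genes XAGE2 was called lower, and VGLL1 had a ratio of 0.800. None of the 6 surface ectoderm genes was called: KRT17 was at 0.714 and ITGB6, an integrin subunit, at 1.44 (483 against 336 CPM). None of 6 mesenchymal genes was called, with VIM at 0.979 and FN1 at 0.828.

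The remaining lists held single called genes, beside the same shares over all genes, and a single gene says nothing of its list. LDHA, a lactate dehydrogenase, was the 1 lower gene of 7 hypoxia genes, at a ratio of 0.633, and was at 0.804 without cycling cells. WNT2B, a WNT ligand, was lower at 20.3 against 39.4 CPM, 1 of 4 WNT genes measured. IFI6, an interferon-induced gene, was at 21.7 against 9.42 CPM. By decile of the score IFI6 did not rise steadily, with 15.7 CPM in decile 3, 4.57 in decile 8 and 29.7 in decile 9. NQO1, a quinone reductase, was at a ratio of 0.634 and SCNN1A, a sodium channel subunit, at 1.57. RYR2, the cardiac ryanodine receptor, was at 28.8 against 14.6 CPM. Without cycling cells SCNN1A was at 1.49 and NQO1 at 0.688, both short of a call.

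**Figure D4:**
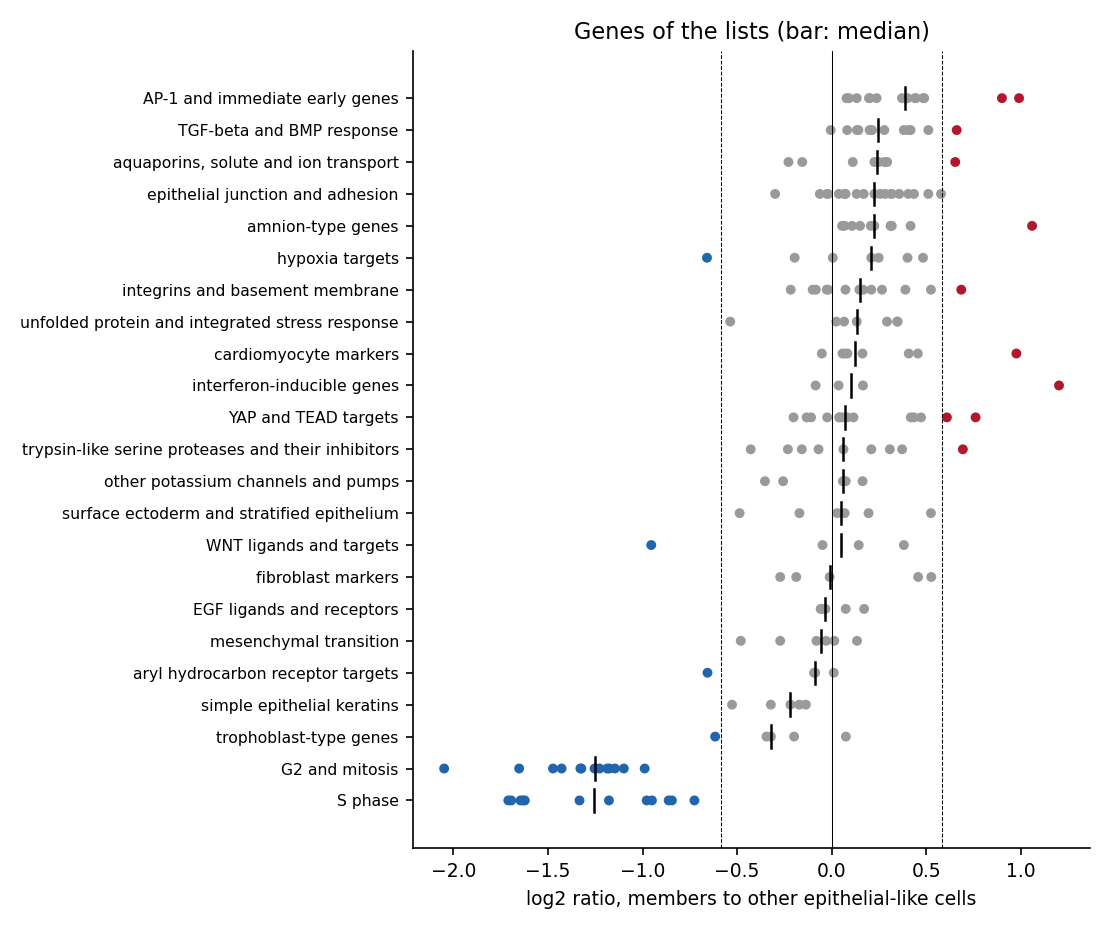
Log2 ratio of members to others for the measured genes of each list with 4 or more of them, 1 point a gene (red called higher, blue called lower, grey neither), with the list median as a bar and dashed lines at ratios of 1.5 and 1/1.5. The S phase, G2 and mitosis lists lie wholly below the lower line, and the medians of the other lists shown lie between the lines.

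The genes with the highest positive correlations of their counts with the score over the 3978 thinned cells were COL3A1 (Spearman 0.278), CCN1 (0.246), AMOT (0.211), SOX4 (0.207) and BTG1 (0.205). These values are a description over cells of 1 library, and abundant genes reach higher values because their counts are less sparse. CCN1 went from 485 CPM in the lowest decile of the score to 1317 in the highest, and COL3A1 from 1740 to 3572. AMOT, angiomotin, a YAP regulator, had 891 CPM in members and 559 in others, and SOX4, a SOX transcription factor, 865 and 531. On the negative side, TUBA1B was at -0.255, TMSB4X, a thymosin, at -0.237, H2AFZ, a histone variant, at -0.231 and TUBB, a tubulin, at -0.214.

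The members did not form a cluster of their own. Clustering of the 4046 cells without the rule and gate genes gave 8 clusters, and members were found in every one. Cluster 1, led by PTH1R, CLDN3 and SYNPO2, held 57.8% of the members, which made up 27% of its 1301 cells (24.6% to 29.5%). Cluster 5, led by VIM, MMP9 and TUBB3, had 25.5% members among 310 cells (20.7% to 30.7%) and held 13% of them. Cluster 2, led by NOG and NPY, had 9.96% members. Clusters 3, 4, 6 and 7, led by replication, histone and mitosis genes and by PTTG1, had between 3.13% and 5.67%. SYNPO2 took part in the clustering, so its place in cluster 1 is no second measurement. Within cluster 1 alone, 112 genes were higher in members and 30 lower, and the SYNPO2 ratio was 2.18. Of these, 74 of the 112 and 17 of the 30 had been called the same way over all epithelial-like cells. The number of genes measured within cluster 1 was not counted.

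Members shared some cells with sets chosen for other leading genes by the same share of 15%. Each set was 15% of all epithelial-like cells, which is the share to set beside those below. The 607 cells highest in GRIA4 and CLDN3 held 21.3% of the members (18.1% to 24.7%), those highest in KRT17 and ITGB6 16.6% (13.8% to 19.8%), and those highest in NPY and NDNF 9.39% (7.19% to 12%). The GRIA4 and CLDN3 share was thus above 15%, the KRT17 and ITGB6 interval held 15%, and the NPY and NDNF share was below it. All of these sets come from the same cells and the same counts, so the shares describe this culture only.

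CD34 protein did not separate members from others. The antibody tag, which the score did not use, had a median of 38 UMIs in both groups with quartiles of 29 and 52 in each, and the 90th percentiles were 74.4 and 74. The ratio of the medians was 1. TNNT2-high cells had a median of 81 tag UMIs with quartiles of 43 and 256.

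**Figure D5:**
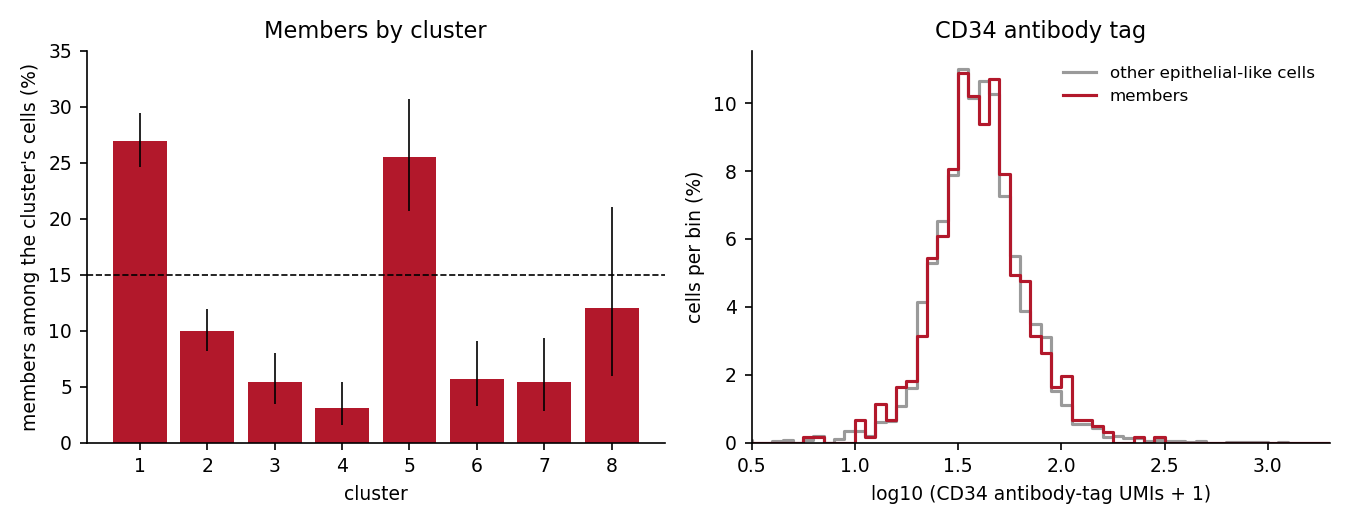
Left, percent of each cluster's cells that were members, with exact 95% intervals and the overall 15% dashed; clusters 1 and 5 lie above it. Right, distribution of CD34 antibody-tag UMIs on a log10 scale for members and comparison cells; the members and others lie on each other at a median of 38.

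Members were somewhat shallower than others. The median was 15988 UMIs and 4569 genes in members (5th to 95th percentile of depth 6870 to 27699) and 17810 and 4797 in others, with mitochondrial shares of 5.63% and 5.86%. Scrublet, a doublet caller, marked 3 members (0.494%) and 49 others (1.42%).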

How the data were processed

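The files were 1 matrix of UMI counts for 36601 genes and the CD34 antibody tag. The counts were made by the authors with Cell Ranger 6.1.2 on GRCh38, per the submitters' processing notes, and were deposited without normalization or cell annotation. Per the labels' protocols, the library kit was a 10x Genomics 3′ kit.

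Cells with 1000 or more genes, at most 25% mitochondrial UMIs and at most 35000 RNA UMIs were kept. Members and others had 9831308 and 61969293 UMIs in all. Counts were pooled per group, scaled to CPM and compared as ratios, with exact Poisson, conditional binomial or Clopper-Pearson intervals. Genes at 20 CPM or more in the higher group were called at a ratio of 1.5 or 1/1.5. Named genes were the 15 highest and 15 lowest ratios at 50 CPM or more in the higher group, without rule, gate, mitochondrial and ribosomal protein genes, plus members of the lists; the 15 lowest and highest without cycling cells were added after the data were seen. Cycling cells had 5 or more G2 and mitosis UMIs or 10 or more S phase UMIs. Clusters were made with scanpy 1.11.5 (2000 variable genes, 30 components, 15 neighbours, Leiden resolution 0.6). Doublets called by Scrublet, 730 of 11211 cells (6.51%), were kept and left out in an alternative. Other settings changed the share of members, the depth, filters, gate, score, level floor, scaling and weight of cells. The ratio script was tested on simulated data. Python 3.11.15, numpy 2.4.6, scipy 1.17.1 and pandas 2.3.3 were used. The members and gene lists were chosen with earlier results of these data known. Promoters were taken from RefSeq, with 4 of the 5 rule genes matched, and no genome was used here. Some genes are not reported here.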

Additional observations from a re-analysis of the deposited data

How the results depend on the processing

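The 177 genes higher in members became 78 when cells were scored after thinning to 5000 UMIs (356 of the 597 cells then chosen were members), 268 and 80 at level floors of 10 and 50 CPM, and 106 without PRSS12 in the score. The 251 lower genes became 394 and 110 at those floors, and 61 when G2 and mitosis cells were left out. Settings chosen after the data were seen gave 116 higher and 27 lower genes without G2, mitosis and S phase cells, and 112 and 30 within cluster 1. The middle left-out marker ratio of 1.57 became 1.40 and 1.29 there. The cause of these shifts was not tested, apart from the floors, which change how many genes are measured. In the other settings run, counts stayed within 1.5 times the main count, and the CD34 tag ratio ran from 0.974 to 1.03.

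The 15 highest genes kept ratios above 1 in all 18 settings in which they were recomputed, from 1.35 (CRABP1 within cluster 1) to 3.32 (SYNPO2 without EDN1 in the score). Reversals were seen among lower genes. Without G2 and mitosis cells HIST1H1B was at 1.43 and HIST1H1D at 1.11. Without G2, mitosis and S phase cells HIST1H1B was at 1.41, CLSPN at 1.24, RRM2 at 1.19, HIST1H1D at 1.14 and MAD2L1 at 1.01. Within cluster 1 HIST1H1B was at 1.71, MKI67 at 1.14, HIST1H1D at 1.08 and MAP1B at 1.01.

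No paired analysis was possible because the 2 libraries are readouts of the same cells of 1 culture and the groups compared have no replicates. Rule genes at a median of 2 to 6 UMIs in a member are sparse, so single cells near the limit can fall on either side of it by counting error. Variation between cultures was not measured.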

Other observations

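Some genes outside the named set, chosen after their values were seen, also differed. NR0B1, the nuclear receptor DAX1, had 21.3 CPM in members and 6.79 in others, a ratio of 3.13 (2.64 to 3.70), and 2.65 without cycling cells. KCNN2, a calcium-activated potassium channel, had 38.2 and 16.0 CPM, a ratio of 2.39, and 2.21 without cycling cells. EMC10 had 6.92 and 32.9 CPM, a ratio of 0.210, and 0.208 without cycling cells, and a single cell held 8.05% of its UMIs in the others. EMC10 was among the leading genes of cluster 8, a group of 83 cells.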
